A study of Mus musculus with 6 samples.

Results

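Of the 24411 genes in the count tables, 48 genes of the lysosome, the vacuolar proton pump (v-ATPase) and autophagy were followed in mouse primary microglia (PM). They were listed by symbol, as 3 transcription factors of the MiT family, 22 genes of lysosomal proteins, 11 genes of the v-ATPase and 12 autophagy genes, and all 48 were among the 10133 genes with enough counts to be tested. RNA-seq libraries of 2 groups, with 3 in each, were compared. PM of the first group received GSK-J4 (10 μM), an inhibitor of H3K27 demethylases, and PM of the second received LPS (10 ng/ml), the bacterial ligand of TLR4, together with GSK-J4 (10 μM), both for 4-h. GSK-J4 is thus shared by both groups, and the comparison measures the response to LPS in its presence. The PM were shaken off mixed glial cultures after 2 weeks, and the cultures came from the pooled whole brains of 12 ICR mice at 3 days of age, so a library stands for no single animal. The study describes the libraries of a treatment as biological replicates from independent experiments.

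Lysosomes are acidic organelles that digest material taken up by phagocytosis or delivered by autophagy, a task that microglia carry out on debris, myelin and dying neurons. The v-ATPase acidifies the lumen: its membrane sector (Vo) conducts protons, and its cytosolic sector (V1) hydrolyses ATP. The MiT factors TFEB, TFE3 and MITF bind E-box elements in the promoters of many lysosomal and autophagy genes. They are held in the cytosol when mTORC1, anchored to the lysosome by the Rag GTPases, phosphorylates them, and the complex of folliculin (Flcn) with Fnip1 or Fnip2 acts on the Rags in this step.

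The counts on genes summed to 2597505 to 3472716 per library. Every level below is in CPM, the count scaled by the library's total and its TMM factor, in which 3 counts in a library are worth 0.673 to 1.24 CPM. The ribosomal precursor Rn45s took 25.6% ± 5.88 of the counts in the GSK-J4 group and 47.1% ± 1.15 in the LPS + GSK-J4 group (SD, n = 3 each). Replicate 3 of either group differed more from replicates 1 and 2 of its group (chi-square per degree of freedom over genes 5.38 to 11.4) than these differed from each other (2.06 and 2.21). All 7 LPS-response control genes listed, among them Tnf and Il1b, were up-regulated. The summed level of 10 microglial markers was 2970 to 3022 CPM in the GSK-J4 libraries and 2279 to 2320 CPM in the LPS + GSK-J4 libraries. All 10 had negative log2 fold changes, with a median of -0.45, and 2 of them (Cx3cr1 and Csf1r) passed the test. The summed level of 9 astrocyte markers went the other way, from 60.2 to 63.4 CPM to 144 to 175 CPM, and so did that of 9 oligodendrocyte lineage markers, from 190 to 221 CPM to 366 to 423 CPM. Gfap and Gja1 made up most of the astrocyte sum with LPS. Of 8 astrocyte markers tested, 7 had positive values and 4 passed, with Aldh1l1 at -0.16. Of 7 oligodendrocyte lineage markers tested, all had positive values and 5 passed. Among all genes tested, 5.46% were called lower and 8.42% were called higher. For 5 neuronal markers the sums were 14.8 to 19.1 CPM and 32.4 to 40.6 CPM, with Rbfox3, Syt1 and Snap25 at 0 to 5 counts in every library. The 2 neuronal markers tested, Tubb3 (log2 fold change 1.38) and Map2 (log2 fold change 1.07), were both called higher. For 6 fibroblast and mural cell markers the sums were 80.1 to 281 CPM and 138 to 427 CPM. In bulk RNA, fewer microglia and less of a transcript per microglial cell cannot be told apart, and the part of the other cell types in the results was not tested.

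Of the 48 genes, 16 were down-regulated in LPS + GSK-J4 PM and 1, Sqstm1, was up-regulated (edgeR quasi-likelihood test, Benjamini-Hochberg adjusted p of at most 0.01 over all 10133 genes), while 31 did not pass. Among all genes tested 5.46% were called lower and 8.42% were called higher at this threshold. The median log2 fold change of the 48 genes was -0.40, against -0.00064 for all genes, and 41 of the 48 values were negative. All 3 LPS + GSK-J4 libraries lay below all 3 GSK-J4 libraries for 32 of the 48 genes, against 18.4% of all genes, and above them for 3 (Mitf, Ctsl and Sqstm1), against 19.8% of all genes. The changes were small. None of the 48 reached the study's cut-off, a log2 fold change of 1.5 or more in either direction with an adjusted p not above 0.01, which 3.76% of all genes passed (0 of the 48 by DESeq2 also), and the values ranged from -1.02 for Tfeb to 0.91 for Sqstm1.

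The count of lower genes depended on the scale and on 1 library. When counts were scaled so that 9 of the microglial markers stayed level, a scale chosen after the data were seen that raised the median of all genes by 0.46, the number called lower fell from 16 to 0 and the number called higher went from 1 to 7. Each of the 9 markers weighed equally in that scale, including 2 with few counts, Tmem119 (4 to 31 per library) and Aif1 (8 to 31 per library). On that scale 15 of the 16 genes kept a negative value that did not pass the test, Ctsb stood at 0.02, and the median of the 48 genes was 0.06. Without the LPS + GSK-J4 replicate 2 library, 6 of the 16 remained called (Ctsd, Gla, Hexa, Psap, Atp6v1a and Atp6v1c1). Sqstm1 was called higher in both cases, and on the microglial scale Mitf, Tfe3, Ctsl, Ctsc, Map1lc3a and Gabarapl2 joined it. The microglial scale raised the values of all genes, so a higher call kept on it is no test of that call. With scaling to the total count alone, which lowered the median of all genes by 0.57, 40 of the 48 were called lower and 0 higher (Sqstm1 at 0.35, adjusted p = 0.0413, edgeR). With the ribosomal features left out, the counts were again 16 and 1.

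**Figure D1:**
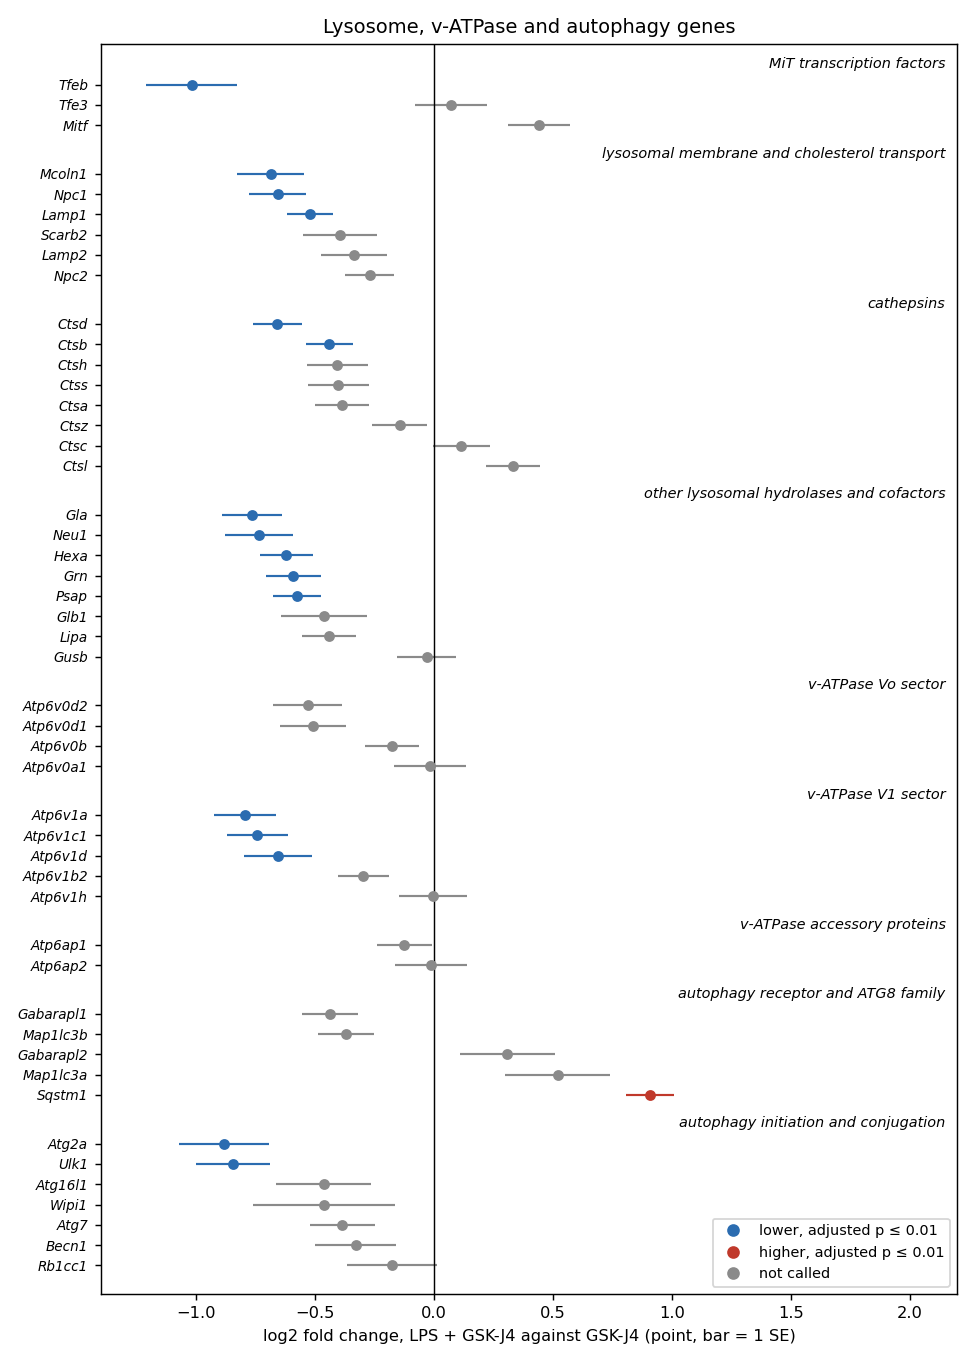
Log2 fold change of each of the 48 genes in LPS + GSK-J4 against GSK-J4 PM (x axis; points, with bars of 1 SE), grouped by list (y axis) and coloured by the call at an adjusted p of at most 0.01. Of the 48 points, 41 lie left of 0, from -1.02 for Tfeb, and Sqstm1 at 0.91 is the only gene called higher.

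The MiT factors did not move together. Tfeb (chr17:47737030-47792419, plus strand, the annotated extent of this protein-coding gene in GRCm38, as for each position here) measured 31.9, 35.2 and 45.1 CPM in the GSK-J4 libraries and 19.1, 16.8 and 19.0 CPM in the LPS + GSK-J4 libraries. The groups did not overlap, and Tfeb was down-regulated 2.02-fold, the largest decrease among the 48 genes (log2 fold change -1.02 ± 0.19 (SE), adjusted p = 0.000970, edgeR). The call was lost without LPS + GSK-J4 replicate 2 and with the microglial markers held level. Tfeb counts were low, from 123 to 157 per library under GSK-J4 and from 44 to 49 with LPS. Tfe3 measured 73.8, 73.8 and 84.3 CPM under GSK-J4 and 66.7, 77.1 and 99.5 CPM with LPS. These groups overlapped, and the log2 fold change of 0.07 had a 95% interval of -0.23 to 0.37. Mitf measured 106, 112 and 94.6 CPM under GSK-J4 and 154, 149 and 123 CPM with LPS, so every LPS + GSK-J4 library was above every GSK-J4 library. Its log2 fold change of 0.44 ± 0.13 missed the threshold (adjusted p = 0.0216) and was -0.13 when counts were scaled to the total alone. The ratio of Mitf to Tfeb counts, chosen after the values were seen, was 3.34, 3.18 and 2.10 in the GSK-J4 libraries and 8.04, 8.89 and 6.48 in the LPS + GSK-J4 libraries, and these ranges were apart.

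Tfec, the remaining MiT gene, known mainly from myeloid cells, had not been listed with the other MiT factors and was followed among the regulators. It was at 9.91, 9.65 and 8.80 CPM under GSK-J4 and at 54.2, 63.7 and 52.4 CPM with LPS, an increase of 5.96-fold (log2 fold change 2.57 ± 0.18, adjusted p = 3.01e-08). On the scale with the microglial markers held level, which raised its value and so is no test of its call, it was at 3.04. Tfec counts were 0.311, 0.274 and 0.195 of the Tfeb counts in the GSK-J4 libraries and 2.84, 3.80 and 2.76 times the Tfeb counts in the LPS + GSK-J4 libraries (a ratio chosen after the values were seen).

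**Figure D2:**
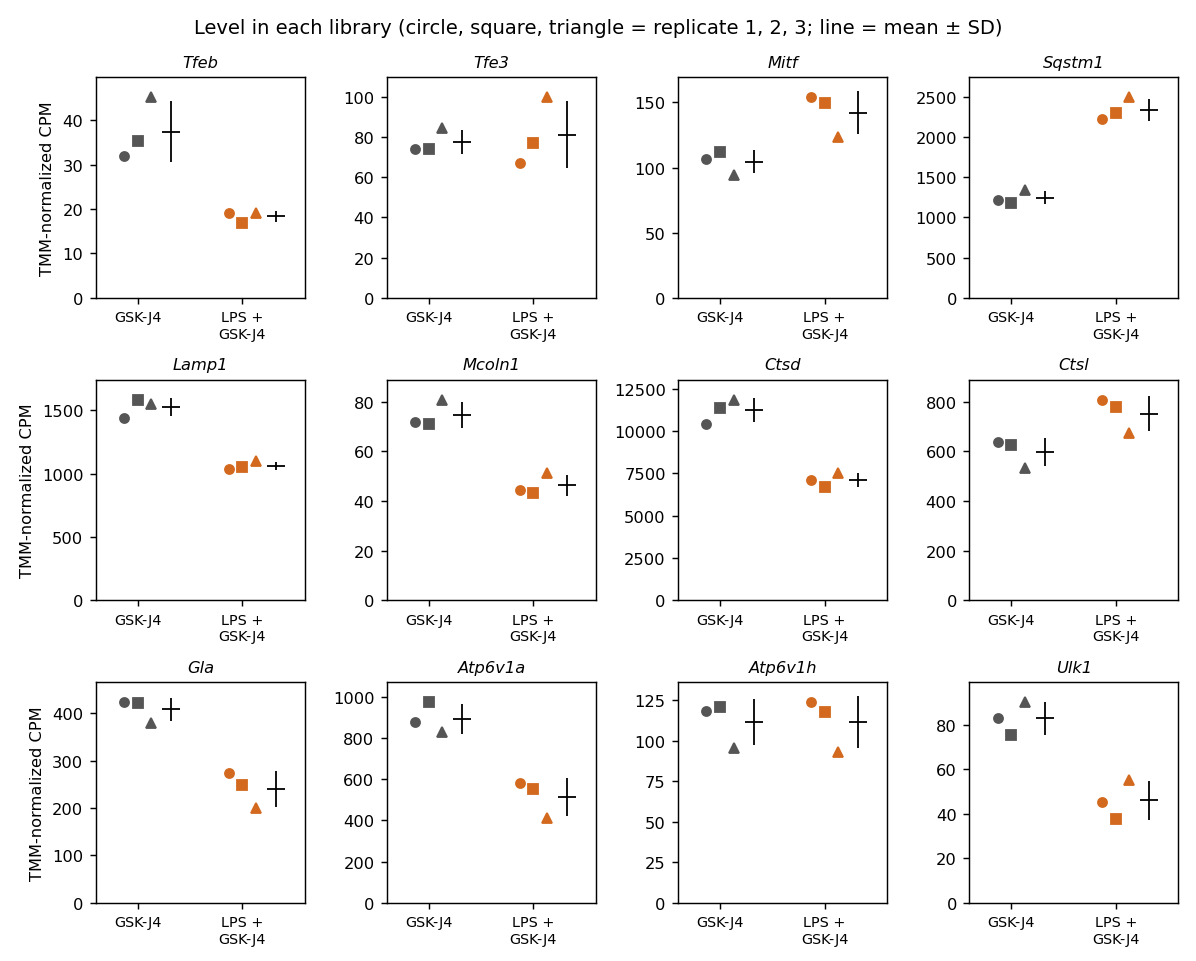
Level of 12 of the genes in each library (y axis, TMM-normalized CPM, from 0; circles, squares and triangles are replicates 1, 2 and 3; the lines beside them give the mean and SD of 3 libraries). The groups are apart for Tfeb, Mitf, Sqstm1, Lamp1, Mcoln1, Ctsd, Ctsl, Gla, Atp6v1a and Ulk1, and overlap for Tfe3 and Atp6v1h.

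Among the lower genes, 4 are shown that carry the palindrome that MiT factors are known to bind, and the 250 bases before their RefSeq starts are given with each CACGTG in capitals. They are the lower genes with the largest decreases among those holding a CACGTG. Where a t precedes and an a follows the capitals, the longer palindrome TCACGTGA is complete. The windows are Atp6v1a at chr16:44139260-44139509 (minus strand), Gla at chrX:134601006-134601255 (minus strand), Mcoln1 at chr8:3500269-3500518 (plus strand) and Ctsd at chr7:142387828-142388077 (minus strand) of GRCm38.p6, each written 5′ to 3′ along its gene:
Atp6v1a: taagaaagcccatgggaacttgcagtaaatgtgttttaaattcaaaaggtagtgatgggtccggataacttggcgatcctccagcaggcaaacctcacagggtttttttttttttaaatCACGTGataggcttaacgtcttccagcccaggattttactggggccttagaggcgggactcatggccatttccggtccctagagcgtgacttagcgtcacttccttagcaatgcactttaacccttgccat
Gla: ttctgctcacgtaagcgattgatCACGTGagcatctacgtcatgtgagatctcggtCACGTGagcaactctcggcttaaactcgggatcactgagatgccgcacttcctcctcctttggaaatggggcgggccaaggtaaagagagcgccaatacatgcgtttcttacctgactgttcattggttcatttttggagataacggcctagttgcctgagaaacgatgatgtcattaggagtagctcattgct
Mcoln1: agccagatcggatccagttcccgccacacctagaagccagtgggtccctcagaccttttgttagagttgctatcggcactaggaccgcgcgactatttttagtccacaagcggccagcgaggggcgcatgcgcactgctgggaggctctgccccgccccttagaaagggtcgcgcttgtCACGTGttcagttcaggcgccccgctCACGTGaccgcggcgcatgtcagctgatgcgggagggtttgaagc
Ctsd: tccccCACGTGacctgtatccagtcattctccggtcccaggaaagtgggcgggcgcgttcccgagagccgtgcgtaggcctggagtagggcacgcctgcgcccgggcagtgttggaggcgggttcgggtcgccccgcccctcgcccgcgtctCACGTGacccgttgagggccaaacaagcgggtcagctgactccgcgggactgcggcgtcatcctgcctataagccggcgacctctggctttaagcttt
Distances here are to the RefSeq starts, which differ from the ends of the annotated extents given for these genes. The Atp6v1a window lies within the annotated extent of its gene, and the other windows lie partly within theirs. The Atp6v1a window holds 1 match, which starts 131 bases before the RefSeq start. Gla holds a pair, at 227 and 194 bases, and both are full TCACGTGA sites. Mcoln1 has matches at 71 and 45 bases, the second of them the longer palindrome, and Ctsd has matches at 245 and 98 bases, of which the one at 98 bases is the longer palindrome. Over windows of 300 bases (250 before to 50 after a start), CACGTG, which reads the same on both strands, was found in 11 of the 37 listed genes that have a promoter entry (29.7%), against 12.5% of the 7788 tested genes with an entry and 8.09% of all 27025 genes in the promoter table. TCACGTGA, which contains CACGTG, was found in 6 of the 37 (16.2%), against 2.44% and 1.12%. Of the genes called lower, 5 of 13 with an entry held CACGTG and 4 of 13 held TCACGTGA, and of those not called, 6 of 23 and 2 of 23. GGANTTTCC, a form of the NF-kB site, searched on both strands, was found in 3 of the 37 (8.11%), Mitf, Tfe3 and Ctsl, against 1.66% of tested genes. Searched in the same way, TGACNNNGC, the core of the antioxidant response element, was found in 9 of the 37 (24.3%) against 17.5% of tested genes, and GAAANNGAA, part of an interferon-stimulated response element, in 3 of the 37 (8.11%) against 8.86%. In the 109 other pathway genes with an entry, CACGTG was found in 24.8%, TCACGTGA in 10.1%, GGANTTTCC in 1.83%, TGACNNNGC in 17.4% and GAAANNGAA in 10.1%. These are matches of letters, and binding was not measured.

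Among 6 genes of the lysosomal membrane and of cholesterol export, 3 were down-regulated and the other 3 also had negative values. Lamp1 (chr8:13159161-13175338, plus strand), which encodes an abundant lysosomal membrane glycoprotein, was at 1442, 1581 and 1547 CPM under GSK-J4 and 1039, 1049.7 and 1097 CPM with LPS, and fell by 30.3% (log2 fold change -0.52 ± 0.10, adjusted p = 0.00101). This call was lost without GSK-J4 replicate 2 or LPS + GSK-J4 replicate 2. Npc1, the transporter that moves cholesterol out of lysosomes, was at 183, 203 and 199 CPM under GSK-J4 and 132, 111 and 128 CPM with LPS (log2 fold change -0.66 ± 0.12, adjusted p = 0.000822). Mcoln1 (chr8:3500457-3515232, plus strand), the lysosomal calcium channel TRPML1, was at 72.0, 71.2 and 80.7 CPM under GSK-J4 and 44.5, 43.1 and 51.2 CPM with LPS (log2 fold change -0.69 ± 0.14, adjusted p = 0.00190). For these 3 genes the highest LPS + GSK-J4 library lay below the lowest GSK-J4 library, and the Npc1 and Mcoln1 calls were also lost without LPS + GSK-J4 replicate 2. Lamp2, the partner of Lamp1, measured 436 ± 46.2 CPM (SD, n = 3) under GSK-J4 and 346 ± 66.8 CPM with LPS, with overlapping groups (log2 fold change -0.34, adjusted p = 0.0947). Npc2, the soluble partner of NPC1, had a log2 fold change of -0.27 (adjusted p = 0.0714) and Scarb2, the receptor that carries glucocerebrosidase to lysosomes, at -0.39 (adjusted p = 0.0818), both with groups that were apart.

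Of 8 cathepsins, the lysosomal proteases, Ctsd and Ctsb were down-regulated, 4 more had negative values and 2 had positive values. Ctsd (chr7:142375911-142388038, minus strand), an aspartic protease, had the highest level per kilobase of the 48 genes and measured 10440.4, 11371 and 11833 CPM under GSK-J4 and 7094, 6696 and 7532 CPM with LPS. It was down-regulated 1.58-fold (log2 fold change -0.66 ± 0.10, adjusted p = 0.000213), and its call held when any single library was left out. Ctsb (chr14:63122462-63145923, plus strand), a cysteine protease, was at 7750.2, 8225 and 7908 CPM under GSK-J4 and 5934, 5527 and 6143 CPM with LPS (log2 fold change -0.44 ± 0.10, adjusted p = 0.00387). The groups were apart, and this call was lost without GSK-J4 replicate 1, without GSK-J4 replicate 2, and without LPS + GSK-J4 replicate 1 or 2. The cysteine proteases Ctsh (log2 fold change -0.41, adjusted p = 0.0320) and Ctss (log2 fold change -0.40, adjusted p = 0.0307), the serine carboxypeptidase Ctsa (log2 fold change -0.39, adjusted p = 0.0225) and Ctsz (log2 fold change -0.14, adjusted p = 0.410) did not pass in edgeR. Ctsa was called lower by DESeq2. Ctsl, a cysteine protease, was at 637, 624 and 531 CPM under GSK-J4 and 807, 777 and 674 CPM with LPS. Each LPS + GSK-J4 library lay above each GSK-J4 library, with a log2 fold change of 0.33 ± 0.11 that missed the threshold (adjusted p = 0.0442) and that was -0.24 when counts were scaled to the total alone. Ctsc, the dipeptidyl peptidase that activates granule serine proteases, was at 179 ± 18.1 CPM under GSK-J4 and 194 ± 12.4 CPM with LPS (log2 fold change 0.11, adjusted p = 0.545). The cathepsin values were thus spread from -0.66 to 0.33 within the list.

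Of 8 other hydrolases and their cofactors, 5 were down-regulated, and all 8 values were negative. Gla (chrX:134588149-134601125, minus strand), alpha-galactosidase A, measured 423, 421 and 380.2 CPM under GSK-J4 and 274, 248 and 199 CPM with LPS (log2 fold change -0.76 ± 0.13, adjusted p = 0.000326). Neu1 (chr17:34931253-34935953, plus strand), the lysosomal sialidase, measured 97.2, 90.9 and 112 CPM under GSK-J4 and 52.7, 59.5 and 67.7 CPM with LPS (log2 fold change -0.74 ± 0.14, adjusted p = 0.00119). Hexa (chr9:59539540-59565109, plus strand), the alpha subunit of beta-hexosaminidase, measured 242, 233 and 257 CPM under GSK-J4 and 158, 163 and 156 CPM with LPS (log2 fold change -0.62 ± 0.11, adjusted p = 0.000653). The groups did not overlap in any of these 3 genes, and the Neu1 call was lost without LPS + GSK-J4 replicate 2. Grn (chr11:102430315-102437048, plus strand) encodes progranulin, a secreted protein that is also delivered to lysosomes. It was at 720.3, 741 and 863 CPM under GSK-J4 and 476, 489 and 577 CPM with LPS (log2 fold change -0.59 ± 0.12, adjusted p = 0.00136), and its call too was lost without LPS + GSK-J4 replicate 2. Psap (chr10:60277627-60302597, plus strand) encodes prosaposin, the precursor of the activator proteins of sphingolipid breakdown. Its level was 4259, 4481 and 4858 CPM under GSK-J4 and 3116, 2944 and 3069 CPM with LPS (log2 fold change -0.57 ± 0.10, adjusted p = 0.000483). Lipa, the lysosomal acid lipase, was apart between groups at 594 ± 58.5 CPM under GSK-J4 and 438 ± 39.2 CPM with LPS (SD, n = 3), and its value of -0.44 missed the threshold narrowly in edgeR (adjusted p = 0.0105). Lipa was called lower by DESeq2. Glb1, beta-galactosidase, had a log2 fold change of -0.46 (adjusted p = 0.0755). Gusb, beta-glucuronidase, was at 231 ± 14.8 CPM under GSK-J4 and 226 ± 31.8 CPM with LPS, with a 95% interval of the log2 fold change of -0.27 to 0.21.

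The v-ATPase genes split within the V1 sector. All 3 lower genes of the pump encode V1 subunits. Atp6v1a (chr16:44085402-44139705, minus strand), the catalytic A subunit, measured 879, 974 and 830.1 CPM under GSK-J4 and 581, 555 and 411 CPM with LPS, a 1.73-fold decrease (log2 fold change -0.79 ± 0.13, adjusted p = 0.000304). Atp6v1c1 (chr15:38661933-38692446, plus strand), the C subunit that joins the sectors, measured 192, 215 and 182 CPM under GSK-J4 and 129, 123 and 100.3 CPM with LPS (log2 fold change -0.74 ± 0.13, adjusted p = 0.000547). Atp6v1d (chr12:78840725-78861638, minus strand), the D subunit of the central stalk, measured 93.9, 99.4 and 85.1 CPM under GSK-J4 and 64.4, 63.3 and 49.1 CPM with LPS (log2 fold change -0.66 ± 0.14, adjusted p = 0.00302). The highest LPS + GSK-J4 library was below the lowest GSK-J4 library for all 3, and the Atp6v1d call was lost without GSK-J4 replicate 1 or 2 or LPS + GSK-J4 replicate 2. Atp6v1b2, the B subunit that pairs with A, was tight within groups, at 282 ± 2.85 CPM under GSK-J4 and 229.6 ± 7.11 CPM with LPS (SD, n = 3), and its value of -0.30 did not pass (adjusted p = 0.0545). Atp6v1h, the regulatory H subunit, was at 118, 121 and 95.3 CPM under GSK-J4 and 124, 118 and 93.3 CPM with LPS, with a 95% interval of the log2 fold change of -0.28 to 0.28. Within each library, Atp6v1a counts were 7.42, 8.05 and 8.71 times the Atp6v1h counts under GSK-J4 and 4.69, 4.71 and 4.40 times with LPS, a ratio chosen after the values were seen that does not depend on the scaling of the libraries.

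None of the 4 Vo genes and neither accessory gene passed in edgeR, with 2 Vo genes lower at an unadjusted p under 0.05, Atp6v0d1 and Atp6v0d2, both called lower by DESeq2. Atp6v0d2, a d subunit isoform known from osteoclasts and macrophages, had 104, 132 and 107 CPM under GSK-J4 and 89.8, 79.8 and 67.7 CPM with LPS, with groups that were apart (log2 fold change -0.53 ± 0.14, adjusted p = 0.0141). Atp6v0d1, the widely expressed d isoform, had 165, 172 and 170.1 CPM under GSK-J4 and 105, 106 and 147 CPM with LPS, also apart (log2 fold change -0.51 ± 0.14, adjusted p = 0.0147). Atp6v0b had a log2 fold change of -0.18 and Atp6v0a1 at -0.02. For the accessory proteins, the largest value was that of Atp6ap1, -0.12 (95% interval -0.35 to 0.11), and Atp6ap2, also known as the prorenin receptor, had a log2 fold change of -0.01 (95% interval -0.31 to 0.28), both with overlapping groups. Of the 12 v-ATPase genes outside the 48, 8 could be tested and none passed the adjusted p of 0.01 in edgeR (1 lower and 1 higher at an unadjusted p under 0.05), with values from -0.43 for Atp6v1g1 to 0.30 for Atp6v1e1. The proteolipid gene Atp6v0c had 0 or 1 count per library. Fragments that align to several places are tallied apart and not counted on genes, so genes with near-identical copies may be undercounted.

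Autophagy genes went in both directions. Sqstm1 (chr11:50199366-50210827, minus strand) encodes p62, the receptor that binds ubiquitinated cargo and is itself degraded with it. It was at 1219.8, 1182 and 1337 CPM under GSK-J4 and 2226, 2297 and 2491 CPM with LPS. The lowest LPS + GSK-J4 library was above the highest GSK-J4 library, and the increase was 1.88-fold (log2 fold change 0.91 ± 0.10, adjusted p = 7.62e-06). Of the ATG8 family, the ubiquitin-like proteins on the autophagosome to which p62 binds, 4 genes were listed and none passed in edgeR (2 lower and 1 higher at an unadjusted p under 0.05), while Gabarapl1 was called lower by DESeq2. Map1lc3b (LC3B) measured 127, 136 and 129.8 CPM under GSK-J4 and 96.4, 104 and 104 CPM with LPS (log2 fold change -0.37 ± 0.12, adjusted p = 0.0331), and Gabarapl1 measured 158, 167 and 169 CPM under GSK-J4 and 116, 127 and 123 CPM with LPS (log2 fold change -0.44 ± 0.12, adjusted p = 0.0118). Both had groups that were apart and neither passed. Map1lc3a (log2 fold change 0.52, adjusted p = 0.106) and Gabarapl2 (log2 fold change 0.31, adjusted p = 0.295) were at 12.5 to 25.2 CPM, with groups that overlapped. The ratio of Sqstm1 to Map1lc3b counts, chosen after the values were seen, was 9.61, 8.72 and 10.3 in the GSK-J4 libraries and 23.1, 22.1 and 24.0 in the LPS + GSK-J4 libraries.

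All 7 genes of autophagosome initiation and conjugation had negative values, and 2 were down-regulated. Ulk1 (chr5:110784488-110810097, minus strand), the kinase that starts autophagy, measured 83.0, 75.6 and 90.2 CPM under GSK-J4 and 45.3, 37.8 and 55.3 CPM with LPS (log2 fold change -0.85 ± 0.16, adjusted p = 0.000831), with groups that were apart and a call that was lost without LPS + GSK-J4 replicate 2. Atg2a (chr19:6241668-6262335, plus strand), a lipid transfer protein of the growing membrane, measured 166, 169.7 and 206 CPM under GSK-J4 and 80.0, 75.2 and 139 CPM with LPS (log2 fold change -0.88 ± 0.19, adjusted p = 0.00289). Its groups were apart, but LPS + GSK-J4 replicate 3 was far above the other two, and the call was lost without GSK-J4 replicate 3 or without LPS + GSK-J4 replicate 1 or 2. Atg7, the E1-like enzyme of conjugation (log2 fold change -0.38, adjusted p = 0.0508), Atg16l1, part of the E3-like complex (log2 fold change -0.46, adjusted p = 0.110), Becn1, a subunit of the class III PI3-kinase complex (log2 fold change -0.33, adjusted p = 0.184), Wipi1, a reader of its lipid product (log2 fold change -0.46, adjusted p = 0.297), and Rb1cc1, the ULK1 scaffold FIP200 (log2 fold change -0.18, adjusted p = 0.551), did not pass. Wipi1 had the lowest level per kilobase of the 48 genes, and its libraries were at 5.78 to 11.3 CPM.

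**Figure D3:**
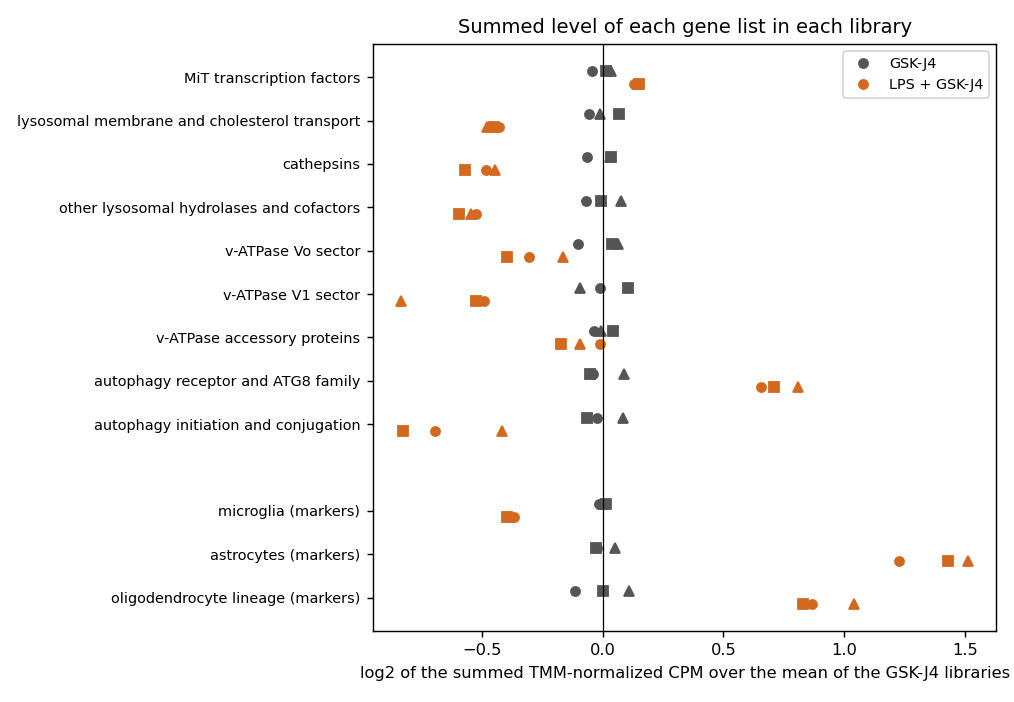
Summed level of each list of genes and of 3 marker lists in each library (x axis, log2 of the summed TMM-normalized CPM over the mean of the GSK-J4 libraries; circles, squares and triangles are replicates 1, 2 and 3). The cathepsin sum was 21653 to 23216 CPM under GSK-J4 and 15247 to 16636 CPM with LPS, the ATG8 and receptor sum went from 1520 to 1674 CPM to 2482 to 2761 CPM, carried by Sqstm1, and the microglial marker sum lies at a similar distance from 0 as the lysosomal sums.

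Taken per library, the 48 genes summed to 35595, 37890 and 38015 CPM under GSK-J4 and to 28054, 26818 and 28493 CPM with LPS, and these ranges were apart. Most of the sum came from cathepsins. Scaled to the exonic length of the gene, the 48 genes had a median level of 38.2 CPM per kilobase under GSK-J4, against 4.18 for the tested genes with an annotated length, and 45 of the 48 lay above that median. Among the 100 genes with the highest level per kilobase 9 were from the list. Ctsd (4770.3 CPM per kilobase) ranked 6 of all, Psap (1652) ranked 10, Ctsb (1316) 16, Ctss (803) 24, Lamp1 (569) 29 and Sqstm1 (371) 41. With LPS, Sqstm1 was at 697 CPM per kilobase and ranked 29, while Lamp1 was at 397 and ranked 45. The coefficient of variation between libraries of a group had a median over the 48 genes of 8.35% under GSK-J4 and 11.7% with LPS, against 13.7% and 18.1% for all genes tested, which have lower counts.

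**Figure D4:**
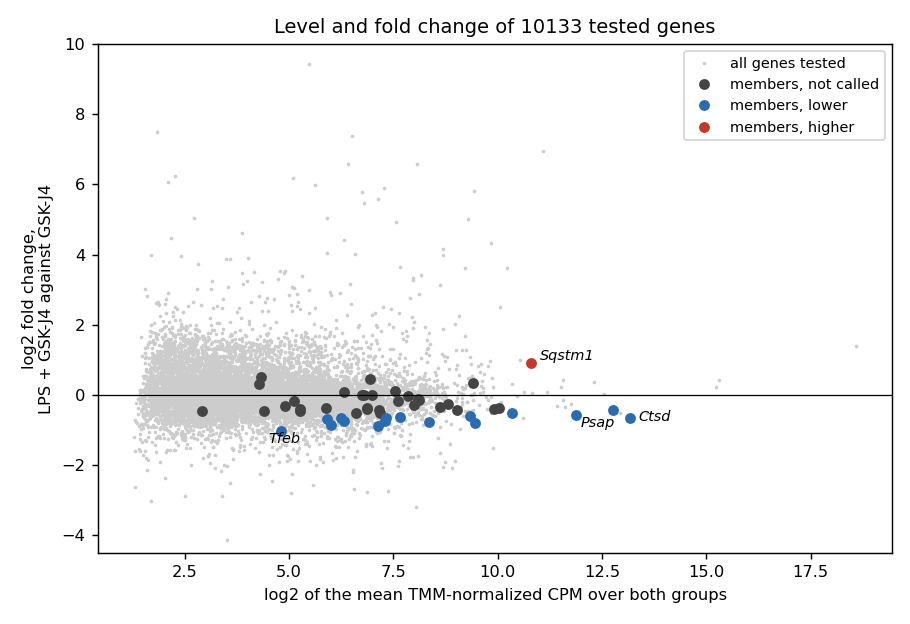
Level (x axis, log2 of the mean TMM-normalized CPM of both groups) and log2 fold change (y axis, LPS + GSK-J4 over GSK-J4) of the 10133 genes tested, with the 48 genes as larger points coloured by their call. The 48 genes lie towards high levels and between log2 fold changes of -1.02 and 0.91, while all genes range from -4.13 to 9.44.

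Outside the 48, 145 other genes of the same pathways had been listed, of which 144 were in the tables and 137 were tested. Of these, 31 were down-regulated and 3 up-regulated, against the 5.46% and 8.42% of all genes tested, and the median log2 fold change was -0.33, against -0.00064. The study's cut-off was passed by 5 of the 137, against 3.76% of all genes, a share near this background. Among 37 other hydrolases, 9 were lower and 1 was higher. Among 38 tested genes of membrane, transport and sorting, 9 were lower and none was higher (edgeR, with 17 lower and 2 higher at an unadjusted p under 0.05). Of 34 other autophagy genes tested, 9 were lower and none was higher (17 lower and 1 higher at an unadjusted p under 0.05). Of 20 regulators of mTORC1 and of the MiT factors, 4 were lower and 2 were higher.

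Several regulators changed by more than any of the 48 genes. Flcn, which encodes folliculin, measured 219.9, 228 and 279 CPM under GSK-J4 and 79.6, 75.9 and 97.9 CPM with LPS, a 2.86-fold decrease (log2 fold change -1.52 ± 0.14, adjusted p = 7.84e-07). Its partner Fnip2 measured 666, 665 and 668 CPM under GSK-J4 and 272, 236 and 255 CPM with LPS (log2 fold change -1.39 ± 0.11, adjusted p = 9.61e-08), and Fnip1, the other partner, measured 418, 448 and 364 CPM under GSK-J4 and 302, 321 and 204 CPM with LPS and missed the threshold (log2 fold change -0.57 ± 0.15, adjusted p = 0.0110). Flcn and Fnip2 were at less than their lowest GSK-J4 library in every LPS + GSK-J4 library. The GTPases Rragd and Rragc, which join RagA or RagB in the dimer that recruits mTORC1, were both down-regulated. Rragd was at 86.8, 99.4 and 81.8 CPM under GSK-J4 and 20.3, 29.0 and 21.9 CPM with LPS, a 3.76-fold decrease (log2 fold change -1.91 ± 0.17, adjusted p = 4.16e-07), and Rragc was at 247, 252 and 241 CPM under GSK-J4 and 124, 120.2 and 103 CPM with LPS (log2 fold change -1.09 ± 0.12, adjusted p = 5.29e-06). Rraga, by contrast, was up-regulated, from 20.8, 29.9 and 18.3 CPM to 44.1, 38.9 and 41.3 CPM (log2 fold change 0.83 ± 0.19, adjusted p = 0.00471), a call that was lost when GSK-J4 replicate 1 or 3 or LPS + GSK-J4 replicate 1 or 2 was left out. With the microglial markers held level, Flcn (-1.06), Fnip2 (-0.92), Rragd (-1.45) and Rragc (-0.63) were still called lower, while none of the 48 genes was. Rraga (1.29) and Tfec were called higher there, which is no test of their calls, since that scale raised their values.

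**Figure D5:**
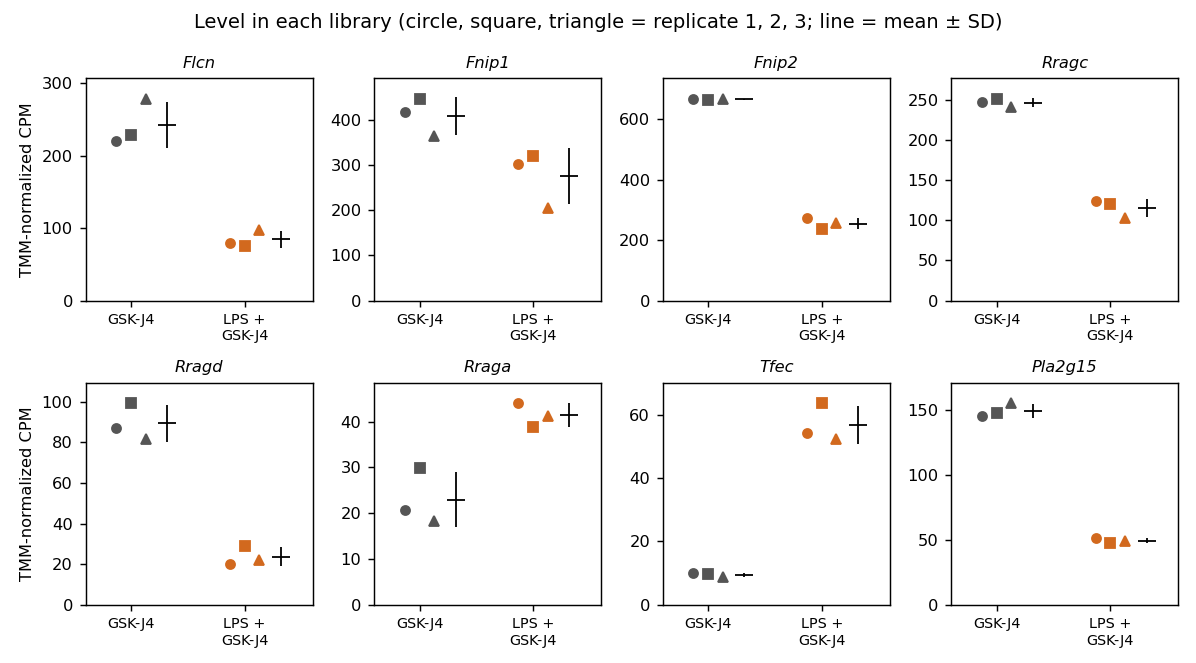
Level of 8 genes outside the 48 in each library (y axis, TMM-normalized CPM, from 0; circles, squares and triangles are replicates 1, 2 and 3; the lines give the mean and SD of 3 libraries). Rragd was at 81.8 to 99.4 CPM under GSK-J4 and at 20.3 to 29.0 CPM with LPS, and the groups are apart in all 8 panels.

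Of the other pathway genes named by size, Pla2g15, the lysosomal phospholipase A2, measured 145, 148 and 155 CPM under GSK-J4 and 51.5, 47.7 and 48.7 CPM with LPS (log2 fold change -1.60 ± 0.13, adjusted p = 1.25e-07), and Bnip3, a receptor of mitophagy, measured 79.0, 70.9 and 63.4 CPM under GSK-J4 and 30.4, 28.6 and 29.3 CPM with LPS (log2 fold change -1.28 ± 0.15, adjusted p = 1.24e-05). Acp5, the tartrate-resistant acid phosphatase of osteoclasts and macrophages, was low and was up-regulated, from 7.31, 5.39 and 5.87 CPM to 19.1, 14.5 and 21.9 CPM (log2 fold change 1.57 ± 0.25, adjusted p = 0.000271). All 3 genes had groups that were apart. With the microglial markers held level, Pla2g15 (-1.14) and Bnip3 (-0.81) kept their calls. Acp5 was at 2.03 on that scale, which raised its value and so is no test of its call.

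The other strand was read as a control of the counting. Over the 48 genes the counts on the strand opposite to the gene were 0.22% to 5.16% of all its counts, with a median of 0.719%. In a test of these counts on 486 genes, 4.94% were called, and of the 12 listed genes that could be tested none was (edgeR, 5 at an unadjusted p under 0.05).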

How the data were processed

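RNA was depleted of ribosomal RNA and sequenced from directional libraries. Per the labels and the submitters' processing notes, the authors trimmed reads with Trimmomatic 0.33, aligned them to mm10 with STAR 2.5.1 and deposited raw counts of fragments per gene, without normalization, for the unstranded, same-strand and reverse-strand readings. The annotation used for counting was not given in the sources used here. The first 4 lines of each table, 74.0% to 78.0% of all tallies, name no gene and were left out. Reverse-strand counts were used, and fragments on the other strand were 0.966% to 1.38% of the sum of both.

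After filterByExpr (minimum count 10, minimum total 15) and TMM scaling, the 2 groups were compared by edgeR's quasi-likelihood test with robust fitting and no covariate (edgeR 4.0.16, limma 3.58.1 and R 4.3.3), with Benjamini-Hochberg adjustment over 10133 genes. The biological coefficient of variation, common to all genes, was 0.133. The script was tested on simulated data. Errors are SD over 3 libraries or SE of a fold change, and p values measure the spread between these libraries, which the study describes as biological replicates. No 2 libraries held identical values. DESeq2 1.42.0 and the other alternatives are given in the closing section. Positions and exonic lengths are from GENCODE M21 (GRCm38), promoters from RefSeq (GRCm38.p6), matched by symbol for 37 of the 48 genes. Figures were made in Python 3.11.15 with matplotlib 3.10.9.

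The 48 genes and all lists were chosen with earlier results of these data known. Genes were named by rule: all MiT factors, the called genes of each list (up to 6), the 2 largest changes of a list without a call, the 5 largest called changes in each direction among the other pathway genes, and Flcn, Fnip1, Fnip2, Rragc, Rragd and Tfec. Untreated and LPS-only PM were not analysed here, and results of 1 listed gene are not reported here.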

Additional observations from a re-analysis of the deposited data

How the results depend on the processing

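The count of 16 lower genes among the 48 was 16 to 24 with unstranded counts, DESeq2's size factors, upper-quartile factors, the DESeq2 Wald test, all genes kept whatever their counts, a minimum of 10 counts in each library, ribosomal features removed and an adjusted p up to 0.05, and all 17 calls remained in each of these. It was 40 with scaling to the total count alone and 0 with the microglial markers held level. The count of higher genes was 0 with the total count alone, 3 at an adjusted p up to 0.05 and 7 with the microglial markers held level. Of the 48 genes, 1 passed the study's cut-off with the total count alone, and 1 passed a looser cut-off, log2 changes of 1 or more in either direction at an adjusted p up to 0.05. The median log2 fold change was -0.97 with the total count alone, -0.45 by DESeq2, -0.46 without a filter (the last 2 with the median of all genes at 0.13 and 0.12) and 0.062 with the microglial markers held level.

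Leaving out 1 library at a time gave 6 to 19 lower and 1 to 3 higher genes, 19 to 36 lower pathway genes and 920 to 1604 called genes in all. The lowest counts came without LPS + GSK-J4 replicate 2 (6, 19 and 920), and the 3 higher genes without LPS + GSK-J4 replicate 3. Without replicate 3 of both groups there were 23 lower and 3 higher genes, 38 lower and 5 higher pathway genes, and 1750 called genes in all, and Tfe3, Atp6v1h and Atp6ap2 stood at -0.030, 0.021 and 0.15. Leaving out libraries also changed the sign of values close to 0, with ranges of -0.099 to 0.19 for Tfe3, -0.14 to 0.056 for Gusb, -0.15 to 0.073 for Atp6v0a1, -0.099 to 0.11 for Atp6v1h and -0.12 to 0.15 for Atp6ap2, none of which was called.

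Other pathway genes called lower numbered 102 with the total count alone, 49 at an adjusted p up to 0.05 and 10 with the microglial markers held level, and those called higher numbered 5 at this looser p and 13 with the microglial markers held level. All genes called numbered 3709, 2390 and 3052 under these 3 settings, against 1406. On the opposite strand, 1 of the listed genes was called without a filter, and 0 to 2 when a library was left out. The total count alone turned the sign of Tfe3 (-0.49), Mitf (-0.13), Ctsc (-0.46), Ctsl (-0.24), Map1lc3a (-0.034) and Gabarapl2 (-0.26), and a minimum of 10 counts in each library that of Atp6v1h (0.0016). Holding the microglial markers level turned the sign of Lamp2 (0.13), Scarb2 (0.068), Npc2 (0.19), Ctsa (0.075), Ctsb (0.022), Ctsh (0.059), Ctss (0.065), Ctsz (0.32), Glb1 (0.0011), Gusb (0.43), Lipa (0.024), Atp6v0a1 (0.44), Atp6v0b (0.29), Atp6v1b2 (0.17), Atp6v1h (0.46), Atp6ap1 (0.34), Atp6ap2 (0.45), Map1lc3b (0.092), Gabarapl1 (0.025), Atg7 (0.077), Becn1 (0.13) and Rb1cc1 (0.29). The cause of these changes was not tested, except that both scales shift all genes by construction.

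With the replicate number as a block, 26 of the 48 genes were lower and 3 higher, 52 pathway genes were lower, 2275 genes were called in all, and 2 genes were called on the opposite strand. Deviations of libraries with the same number correlated at -0.01, 0.12 and 0.30 over genes. Replicate 3 of each group correlated best with replicate 3 of the other group. GSK-J4 replicates 1 and 2 each correlated best with an LPS + GSK-J4 library of another number. Whether libraries of the same number shared more than the number was not tested, and the main test used no block. With 3 libraries against 3, an exact permutation test cannot give a p below 0.1, so the calls rest on the spread pooled over genes.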

Other observations

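The pathway genes outside the 48 included 5 subunits of HOPS, the complex that tethers late endosomes and autophagosomes to the lysosome. Of these 5, 4 passed the test, all lower, against 5.46% of all genes tested. The subunits were picked out after their values were seen, and the complex was not listed in full. Vps39 measured 59.2, 68.5 and 65.6 CPM under GSK-J4 and 34.0, 28.2 and 24.0 CPM with LPS (log2 fold change -1.16 ± 0.16 (SE), adjusted p = 6.9e-05, edgeR), and Vps18 measured 221, 224 and 286 CPM under GSK-J4 and 117, 118 and 149 CPM with LPS (log2 fold change -0.93 ± 0.14, adjusted p = 0.000142). Vps33a had a log2 fold change of -0.78 ± 0.15 (adjusted p = 0.000911) and Vps11 of -0.71 ± 0.13 (adjusted p = 0.000930), while Vps41 did not pass (log2 fold change -0.26, adjusted p = 0.423). All 4 that passed had groups that were apart, with LPS + GSK-J4 lower, which nearly follows from the calls and adds no support to them. With the microglial markers held level, Vps39 alone of these 4 was still called, at -0.70.

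Of the other autophagy genes, 9 of the 34 tested were lower, against 5.46% of all genes tested. Of these 9, 3 that act beside Becn1 or Atg7 were picked out after their values were seen. Atg12, the ubiquitin-like protein that ATG7 activates, measured 143, 148 and 134 CPM under GSK-J4 and 61.3, 69.8 and 51.6 CPM with LPS (log2 fold change -1.22 ± 0.14, adjusted p = 7.65e-06). Pik3c3, the catalytic subunit of the lipid kinase that holds BECN1, had a log2 fold change of -1.0 ± 0.17 (adjusted p = 0.000479), and Atg14, its autophagy-specific subunit, of -0.97 ± 0.19 (adjusted p = 0.00150). The other subunits Pik3r4 (log2 fold change -0.41, adjusted p = 0.128) and Uvrag (log2 fold change -0.43, adjusted p = 0.108) did not pass. Nor did other genes that act beside ATG7 or BECN1, with log2 fold changes of -0.20 for Atg3 (adjusted p = 0.528), -0.32 for Atg5 (adjusted p = 0.261), 0.04 for Atg10 (adjusted p = 0.936) and -0.13 for Ambra1 (adjusted p = 0.577). Atg12 was still called lower with the microglial markers held level, at -0.76, and Pik3c3 and Atg14 were not.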
